A study of Mus musculus with 34 samples.

Results

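The genes described here are 4 neighbours on mouse chromosome 4, Hpca, Fndc5, S100pbp and Tmem54, which were followed in the stromal vascular fraction (SVF) of visceral fat under a high fat diet. The SVF is the pellet of immune, stromal, endothelial and mesothelial cells that remains once the fat has been digested with collagenase and its buoyant adipocytes have been taken off. Hpca and Fndc5 were chosen by their lower TPM on the high fat diet than on the control diet at 8 weeks, and S100pbp and Tmem54 were taken as the protein coding genes on either side. All 4 were among the 32098 genes listed. The values of that comparison are therefore given as a description, and tests between the diets were kept to 20 and 34 weeks. Tests of correlation within groups also used the 8 week libraries, with group means removed.

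All animals were male C57BL/6J mice, recorded as C57BL/6 in the labels, which name no transgene or deletion. From 6 weeks of age they received either a control diet (CHOW) or a high fat diet with 60% of calories from fat (HFD), and they were fasted before tissue was taken from the perigonadal depot. RNA-seq covered CHOW at 8 weeks (4 libraries), HFD at 8 weeks (6), CHOW at 20 weeks (5), HFD at 20 weeks (6), CHOW at 34 weeks (7) and HFD at 34 weeks (6). Nothing in the labels said that each library came from its own mouse, so p-values measure only the spread between these libraries. Values are TPM, each gene's length-corrected share of the transcripts of a library on a scale that sums to 1000000, which keep no read depth, and the 34 week libraries stood in a table of their own that was neither tested nor ranked against the other.

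Hippocalcin, the product of Hpca, belongs to the neuronal calcium sensors, small proteins that bind calcium through EF hands, carry a myristoyl group and move to membranes when calcium rises. It is best known from hippocampal neurons. Fndc5 encodes a transmembrane protein with a fibronectin type III domain, and its shed ectodomain is irisin, a factor that contracting muscle releases and that has been studied for its action on fat cells. S100pbp encodes a nuclear protein that binds the calcium-binding protein S100P, and Tmem54 encodes a membrane protein of little known function.

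Within the locus the genes lie tail to tail and head to head. On GRCm38 (gencode M21), Tmem54 (ENSMUSG00000028786.15) spans chr4:129105548-129111626 on the plus strand and Hpca (ENSMUSG00000028785.12) spans chr4:129111570-129122036 on the minus strand. The ends of Hpca and Tmem54 overlap, and their exons share 57 bp on opposite strands, out of 2922 bp of exon in Hpca and 1222 bp in Tmem54. Libraries were made with a stranded kit, but the sources used here do not say whether strand entered the quantification, so reads in those 57 bp could be shared between Hpca and Tmem54. Fndc5 (ENSMUSG00000001334.9) spans chr4:129136999-129144593 on the plus strand and starts 14963 bp from the start of Hpca, so the pair is transcribed outwards. S100pbp (ENSMUSG00000040928.15) spans chr4:129148005-129189727 on the minus strand and converges on Fndc5 across a gap of 3411 bp. A lincRNA, Gm15906, ends 88 bp before Fndc5 on the same strand. It was listed at 0 in every HFD library and above 0 in 1 CHOW library at each time, with a highest value of 1.99 TPM.

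The 250 bases before the annotated RefSeq start (GRCm38.p6) of each member are printed because the 8 week difference was shared by Hpca and Fndc5, which have separate starts, while the diets overlapped for the genes on either side. They run 5′ to 3′ on the strand of the gene, and capitals mark every match on either strand to the GC box core GGGCGG, to the half-site AGGTCA, to the CCAAT box or to the letters TGACG, which begin a cyclic AMP response element. Where GGGCGG lies on the other strand it reads CCGCCC in the printed line, and matches that abut or overlap run together. Hpca has 3 start windows in that table, S100pbp and Tmem54 have 2 each and Fndc5 has 1, and the first listed is shown. These RefSeq starts need not match the gencode limits given above. The Hpca window lies inside the gencode gene, whose start is at 129122036, and the S100pbp window reaches past its gencode start at 129189727 into the gene.
Hpca, chr4:129121748-129121997, minus strand: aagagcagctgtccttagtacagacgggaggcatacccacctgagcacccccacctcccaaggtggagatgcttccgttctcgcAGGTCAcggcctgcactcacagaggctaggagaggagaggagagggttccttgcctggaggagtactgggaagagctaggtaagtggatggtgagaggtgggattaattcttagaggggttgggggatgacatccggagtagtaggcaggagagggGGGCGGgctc
Fndc5, chr4:129136749-129136998, plus strand: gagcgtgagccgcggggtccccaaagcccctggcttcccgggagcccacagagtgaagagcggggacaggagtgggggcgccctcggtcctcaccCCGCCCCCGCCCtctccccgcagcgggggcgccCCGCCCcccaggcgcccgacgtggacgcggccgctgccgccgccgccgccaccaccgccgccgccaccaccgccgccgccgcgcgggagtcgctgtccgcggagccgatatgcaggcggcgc
S100pbp, chr4:129189580-129189829, minus strand: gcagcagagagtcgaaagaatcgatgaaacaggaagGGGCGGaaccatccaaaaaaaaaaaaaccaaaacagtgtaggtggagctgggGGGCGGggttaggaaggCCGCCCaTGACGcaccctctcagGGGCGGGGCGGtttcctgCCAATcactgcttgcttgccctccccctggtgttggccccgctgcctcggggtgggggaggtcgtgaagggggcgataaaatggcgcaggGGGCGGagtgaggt
Tmem54, chr4:129105280-129105529, plus strand: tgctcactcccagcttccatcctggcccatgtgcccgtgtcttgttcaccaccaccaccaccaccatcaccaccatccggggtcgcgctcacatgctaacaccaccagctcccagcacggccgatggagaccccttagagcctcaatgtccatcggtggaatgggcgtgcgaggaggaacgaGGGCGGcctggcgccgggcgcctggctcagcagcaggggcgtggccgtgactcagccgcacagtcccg

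The Fndc5 window was the richest in G and C, at 80.8% with 38 CpG dinucleotides, and its GC content was above that of 99.0% of all 27025 windows. The Hpca window held 58.8% GC and 6 CpG, against a median of 52.0% and 6 CpG over all windows, so the printed windows of Hpca and Fndc5 differ in composition. As the Hpca window lies within the gencode gene, this need not hold for the sequence before its gencode start. GGGCGG occurred in all 4 windows, with 1 match in Hpca, 3 in Fndc5, 6 in S100pbp and 1 in Tmem54, and 32.9% of all windows hold it. AGGTCA, to which nuclear receptors bind, occurred only in Hpca among these 4 windows and is in 13.8% of all windows. CCAAT and TGACG occurred only in S100pbp and are in 34.5% and 17.9% of all windows, and neither TATAAA nor CACGTG was found in any of the 4. None of these 6 motifs was held by the Hpca and Fndc5 windows and missing from the windows of S100pbp and Tmem54.

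Libraries of a group resembled each other across genes, with r of 0.846 to 0.973 at 8 and 20 weeks and 0.821 to 0.973 at 34 weeks, and between 13200 and 17213 genes reached 1 TPM. The SVF label held up against its markers, since the 6 macrophage genes summed to at least 3123 TPM and the 8 progenitor and fibroblast genes to at least 2773 TPM in every library. Some libraries stood apart. HFD 8 week replicate 3 held 113610 TPM of 5 seminal vesicle genes, and the 6 erythroid genes reached 267896 TPM in HFD 8 week replicate 6. CHOW 34 week replicates 5 to 7 held far more adipocyte RNA than the rest of their group, up to 56340 TPM over 10 adipocyte genes.

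**Figure D1:**
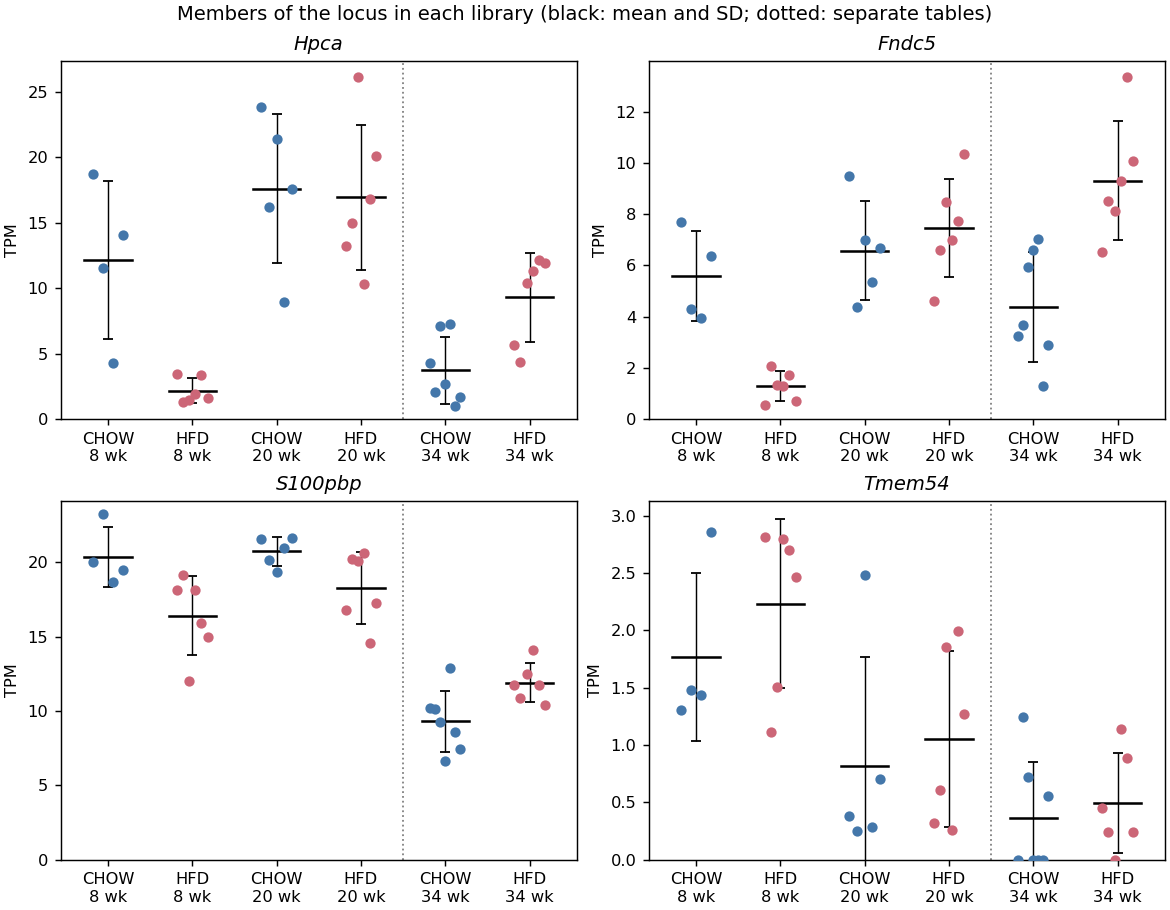
TPM (y axis, from 0) of the 4 members in each library, by diet and weeks on the diet; points are libraries, black lines the mean and SD, and the dotted line separates the tables. The 6 HFD 8 week libraries lie below the CHOW 8 week libraries for Hpca (1.32 to 3.44 against 4.29 to 18.7 TPM) and for Fndc5 (0.577 to 2.10 against 3.97 to 7.69 TPM), and at 20 weeks the diets overlap for all 4 genes.

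Hpca was at 18.7, 11.5, 4.29 and 14.1 TPM in the 4 CHOW libraries of 8 weeks. In the 6 HFD libraries of that time it ran from 1.32 through a median of 1.78 to 3.44 TPM. Every HFD library was below every CHOW library (12.2 ± 6.04 TPM, SD, n = 4, against 2.20 ± 0.965 TPM, n = 6), and CHOW replicate 3 was the closest to the HFD range. On the log2(TPM + 1) scale, which understates changes of low genes, HFD minus CHOW was -1.94 (SE 0.33).

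Fndc5 showed the same order at a lower level. The CHOW libraries of 8 weeks were at 7.69, 4.32, 3.97 and 6.37 TPM, and the HFD libraries ran from 0.577 through 1.33 to 2.10 TPM. Again no library of one diet reached the other, and the difference was -1.52 (SE 0.24) on the log2 scale. Among all 16808 genes tested, 1.77% were lower on HFD at 8 weeks with no overlap of libraries, and 0.0238% (4 genes) passed an adjusted p of 0.05 in that direction. Hpca and Fndc5 were chosen through this contrast, so nothing is read from those shares.

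S100pbp and Tmem54, which flank the pair, lay closer between the diets. S100pbp was at 20.0, 23.3, 18.7 and 19.5 TPM on CHOW and at 12.0 to 19.1 TPM on HFD, a log2 difference of -0.31 (SE 0.13), and the groups overlapped. Tmem54 was at 1.30, 1.48, 1.43 and 2.86 TPM on CHOW and at 1.11 to 2.82 TPM on HFD (median 2.59), a difference of 0.22 (SE 0.31). Its libraries overlapped from end to end.

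Other RNA also differed between the diets at 8 weeks. The 6 mast cell genes summed to 279 to 518 TPM on CHOW and to 113 to 258 TPM on HFD, with none of the 6 at 0 in all libraries of a group, and the groups did not overlap. The 10 adipocyte genes, none of them at 0 throughout, summed to 969 to 2108 TPM on CHOW and to 494 to 973 TPM on HFD. At 20 weeks the mast cell genes summed to 477 to 683 TPM on CHOW and to 573 to 2732 TPM on HFD. The adipocyte genes then summed to 559 to 1138 TPM on CHOW and to 310 to 490 TPM on HFD. The part of either list in the difference of Hpca and Fndc5 was not tested. In a mixed pellet fewer cells of a type and less RNA per cell cannot be told apart. Without HFD replicate 3, the library with seminal vesicle RNA, the difference was -1.88 for Hpca and -1.53 for Fndc5, and without HFD replicate 6, the library with erythroid RNA, -1.90 and -1.45. With the adipocyte score as a covariate it was -1.51 for Hpca and -1.27 for Fndc5, though adipocyte RNA itself differed between the diets. Skeletal muscle is a main site of Fndc5 expression, and its 8 marker genes summed to at most 32.2 TPM in any library. At 8 weeks the median of that sum was 25.5 TPM on CHOW and 22.7 TPM on HFD. On each diet 5 of the 8 genes then averaged 1 TPM or more, while Myh4 was at 0 in all HFD libraries. The part of muscle RNA in the difference of Fndc5 was not tested. The 7 neuronal genes summed to 32.1 to 41.3 TPM on CHOW and 26.0 to 50.7 TPM on HFD at 8 weeks, and the 5 Schwann cell genes to at most 9.94 TPM in any library.

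At 20 weeks the diets overlapped for all 4 members. The share of all genes whose diets overlapped then is not given here, so nothing is read from that overlap. Hpca was at 23.9, 16.2, 21.4, 8.98 and 17.6 TPM on CHOW and ran from 10.4 through 15.9 to 26.1 TPM on HFD. HFD minus CHOW was -0.04 (SE 0.31) on the log2 scale with a 95% interval of -0.68 to 0.59 and an adjusted p of 0.945 by limma, and the exact two-sided permutation test (462 arrangements) gave p = 0.879. Fndc5 was at 9.49, 4.38, 6.98, 5.37 and 6.69 TPM on CHOW and ran from 4.60 through 7.38 to 10.3 TPM on HFD. Its difference was 0.16 (SE 0.22), with an interval of -0.30 to 0.62 and an adjusted p of 0.669 by limma. The 8 week differences lie outside both intervals, but the genes were chosen through them, and a change of the diet difference between the times was not tested.

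S100pbp was at 19.4 to 21.6 TPM on CHOW at 20 weeks and at 14.6 to 20.6 TPM on HFD (median 18.7). The difference of -0.18 (SE 0.12) did not pass the threshold (adjusted p = 0.33 by limma). Tmem54 was at 0.379, 0.249, 2.48, 0.282 and 0.706 TPM on CHOW and at 0.258 to 2.00 TPM on HFD (median 0.936), a difference of 0.21 (SE 0.29) with an adjusted p of 0.684 by limma. None of the 4 members was called at 20 weeks, when 14.3% of the 16808 genes tested were called between the diets (9.32% higher and 4.99% lower on HFD).

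Set along the time on diet, the HFD group of 8 weeks stood apart from the other groups of that table for Hpca and Fndc5. Hpca averaged 17.6 ± 5.71 TPM (SD, n = 5) on CHOW and 16.9 ± 5.56 TPM (n = 6) on HFD at 20 weeks, then 12.2 TPM on CHOW and 2.20 TPM on HFD at 8 weeks. The first 3 of those groups overlapped, and the last overlapped none of them. Fndc5 fell into the order 7.46 ± 1.92 TPM for HFD at 20 weeks, 6.58 ± 1.93 TPM for CHOW at 20 weeks, 5.59 ± 1.75 TPM for CHOW at 8 weeks and 1.30 ± 0.579 TPM for HFD at 8 weeks, and there too only the last stood clear. From 8 to 20 weeks the log2 difference on HFD was 2.48 (SE 0.29) for Hpca and 1.89 (SE 0.21) for Fndc5, and on CHOW it was 0.59 and 0.20. The HFD libraries of 20 weeks did not overlap those of 8 weeks for either gene, as held in that direction for 2.89% of all genes tested. For both genes all 6 HFD libraries of 8 weeks lay below the 15 other libraries of that table. In all, 30 of 16808 genes (0.178%) had that property, and none of the 30 other tested genes within 500 kb of the locus did. S100pbp moved little between the times, by 0.03 on CHOW and 0.15 on HFD, while Tmem54 was lower at 20 weeks by -0.69 and -0.71. Hpca and Fndc5 were chosen by their low HFD values at 8 weeks. Nothing is therefore read from the shares of 2.89% and 0.178% or from the lack of such neighbours. All differences between the times use the 8 week libraries and carry no test.

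**Figure D2:**
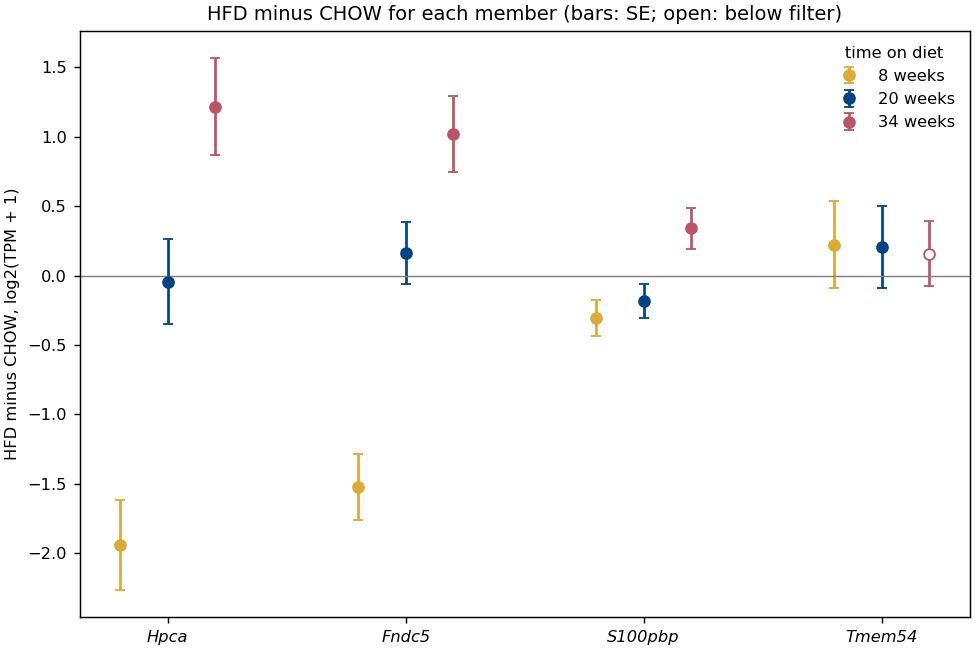
HFD minus CHOW on the log2(TPM + 1) scale (y axis) for each member at 8, 20 and 34 weeks; points are differences of group means, bars their SE, and the open point did not pass the filter on low values. Hpca goes from -1.94 through -0.04 to 1.22 and Fndc5 from -1.52 through 0.16 to 1.02.

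At 34 weeks both genes were higher on HFD in the group means, but the difference did not survive adjustment. Hpca ran from 1.05 through 2.72 to 7.28 TPM in the 7 CHOW libraries and from 4.40 through 10.9 to 12.2 TPM in the 6 HFD libraries. In 4 of the HFD libraries Hpca exceeded every CHOW library, and in the other 2, replicates 1 and 2, it lay inside the CHOW range. HFD minus CHOW was 1.22 (SE 0.35, 95% interval 0.47 to 1.97), with an adjusted p of 0.184 and an unadjusted p of 0.00367 by limma. The exact two-sided permutation test (1716 arrangements) gave p = 0.0117 for Hpca alone.

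Fndc5 ran from 1.29 through 3.68 to 7.02 TPM on CHOW and from 6.51 through 8.90 to 13.3 TPM on HFD at 34 weeks. The HFD libraries met the CHOW range at a single library, replicate 1. The difference was 1.02 (SE 0.27, interval 0.44 to 1.61), with an adjusted p of 0.152 and an unadjusted p of 0.00217 by limma, and the exact permutation test gave p = 0.00524. S100pbp ran from 6.66 to 12.9 TPM on CHOW and from 10.4 to 14.1 TPM on HFD, a difference of 0.34 (SE 0.15, adjusted p = 0.339 by limma). Tmem54 was listed at 0 in 4 CHOW libraries and 1 HFD library, reached 1.25 TPM at most, and did not pass the filter on low values.

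At 34 weeks 0.243% of the 13982 genes tested (34 genes) were called between the diets, all of them higher on HFD, and no member was among them. The groups overlapped for all 4 members, and 0.937% of the genes tested had groups that did not. With CHOW replicates 5 to 7 left out, the libraries rich in adipocyte RNA, the differences were 1.05 for Hpca and 0.83 for Fndc5 (adjusted p = 0.358 and 0.245 by limma). With limma's sample quality weights they were 1.19 and 1.01 and passed the threshold (adjusted p = 0.0483 and 0.0176). The lymphocyte genes moved with the diet at this time, from 23.9 to 53.2 TPM summed over 6 genes on CHOW to 55.2 to 96.6 TPM on HFD, as did the 6 mast cell genes, from 103 to 1071 TPM to 810 to 2797 TPM. None of these 12 genes was at 0 in all libraries of a group, and their part in the difference was not tested.

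The 39 other genes within 500 kb give the surroundings. At 8 weeks 30 of them passed the filter, and their median difference was -0.11, against -0.08 over all genes. None had groups that did not overlap, and 1.77% of all genes tested were lower on HFD without overlap. The differences of Hpca and Fndc5 at that time were outside the range of these neighbours, -0.65 to 0.77. Both genes were chosen through that contrast, so nothing is read from their place outside it. At 20 weeks 4 of 30 tested neighbours were called higher and 1 lower on HFD, a share near the 14.3% called over all genes. C77080 rose by 1.46 (SE 0.18, adjusted p = 3.6e-05 by limma), from at most 20.1 TPM on CHOW to between 37.1 and 64.3 TPM on HFD. Tssk3, a kinase gene of spermatids, rose by 2.45 (SE 0.67, adjusted p = 0.0205), from at most 0.839 TPM on CHOW to between 1.02 and 56.8 TPM on HFD, and the 6 germ cell genes summed to 7.21 to 11428 TPM in those HFD libraries against 0.337 to 192 TPM on CHOW. Kpna6 and Zbtb8os rose by 0.69 and 0.57, and Yars, the tyrosyl-tRNA synthetase gene that lies 32 bp from S100pbp, fell by 0.60 (adjusted p = 0.0322, 0.0442 and 0.0488 by limma). At 34 weeks none of 28 tested neighbours was called, when 0.243% of all genes tested were. Their median difference was 0.12, against 0.10 over all genes.

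**Figure D3:**
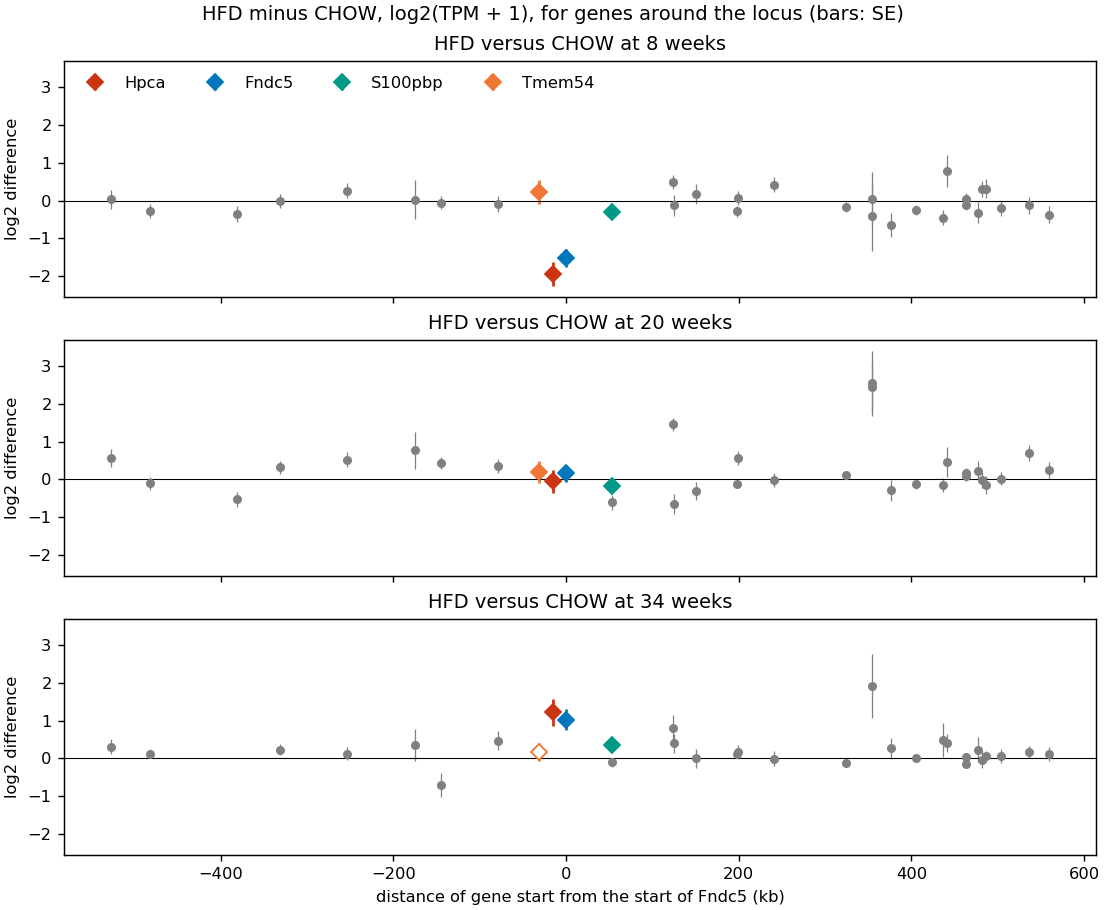
HFD minus CHOW on the log2(TPM + 1) scale (y axis, bars SE) against the distance of each gene's start from that of Fndc5 in kb (x axis), at 8, 20 and 34 weeks; diamonds are the members, grey points the other tested genes within 500 kb, and the open diamond did not pass the filter on low values. At 8 weeks Hpca (-1.94) and Fndc5 (-1.52), which were chosen through that contrast, lie below all grey points, whose lowest value is -0.65.

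The family of Hpca was followed through the same comparisons. Of 13 neuronal calcium sensor genes, 9 were tested at 8 and 20 weeks and 6 at 34 weeks. Hpcal1, the family member with the highest level among those described, was at 66.9 to 102 TPM on CHOW and 51.9 to 126 TPM on HFD at 8 weeks, where Hpca was lower on HFD. At 20 weeks Hpcal1 rose from 70.4 ± 16.2 TPM (n = 5) to 111 ± 16.7 TPM (n = 6), a log2 difference of 0.66 (adjusted p = 0.0293 by limma). It was the only member called of the 9 tested, a share near the 14.3% called over all genes. Ncs1 averaged 6.38 TPM on CHOW and 4.56 TPM on HFD at 8 weeks, and Ncald 6.21 and 5.09 TPM. Kcnip3, whose product binds potassium channels and DNA, had differences of the same sign as those of Hpca, -0.65 at 8 weeks, -0.30 at 20 weeks and 0.63 at 34 weeks, with groups that overlapped at each time and an adjusted p of 0.475 and 0.39 at 20 and 34 weeks by limma. Ncs1 was at -0.46 at 8 weeks, 0.05 at 20 weeks and 0.09 at 34 weeks. Whether these genes differ from Hpca was not tested. Hpca was the one family member whose 8 week groups did not overlap, in the contrast that chose it. No member of the family was called at 34 weeks, when 0.243% of all genes tested were.

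Of 11 genes of the FNDC family, 8 were tested at 8 and 20 weeks and 6 at 34 weeks. Fndc1 was at 116 ± 13.6 TPM on CHOW and 119 ± 27.4 TPM on HFD at 8 weeks, and Fndc3b at 62.7 ± 12.0 TPM and 54.6 ± 14.6 TPM. At 20 weeks Fndc1 fell by 0.75 on HFD (SE 0.21, adjusted p = 0.024 by limma). No other of the 8 tested was called at 20 weeks, a share near the 14.3% called over all genes. None was called at 34 weeks, when 0.243% of all genes were. The list of 9 genes around irisin held inducers, receptor chains and targets in the browning of fat, and also Hsp90aa1 and Bdnf. It had 6 tested genes at 20 weeks, of which 3 were called, all higher on HFD, when 9.32% of all genes tested were called higher. Adjusting for adipocyte RNA took the 20 week calls over all genes from 2405 to 167, of which 31.7% were higher. The 10 adipocyte genes then summed to 559 to 1138 TPM on CHOW and 310 to 490 TPM on HFD, without overlap. That fit therefore cannot separate adipocyte RNA from diet, and nothing is read from the drop. Values of the list genes under it are not given here. Itgb5, the integrin beta 5 chain, rose from 67.7 ± 8.72 TPM to 146 ± 20.0 TPM (1.09, adjusted p = 0.00025 by limma), Itgav, its alpha V partner, rose by 0.94 (adjusted p = 0.035), and Esrra, which works with the coactivator encoded by Ppargc1a, rose by 0.84 (adjusted p = 0.0315). The other tested genes of the list were not called, with Ppargc1a at 0.47, Hsp90aa1 at -0.16 and Ucp1 at -0.23 (adjusted p = 0.108, 0.673 and 0.545 by limma). Fndc5 itself did not differ detectably between the diets at 20 weeks. None of 5 tested genes of the list was called at 34 weeks, when 0.243% of all genes tested were.

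**Figure D4:**
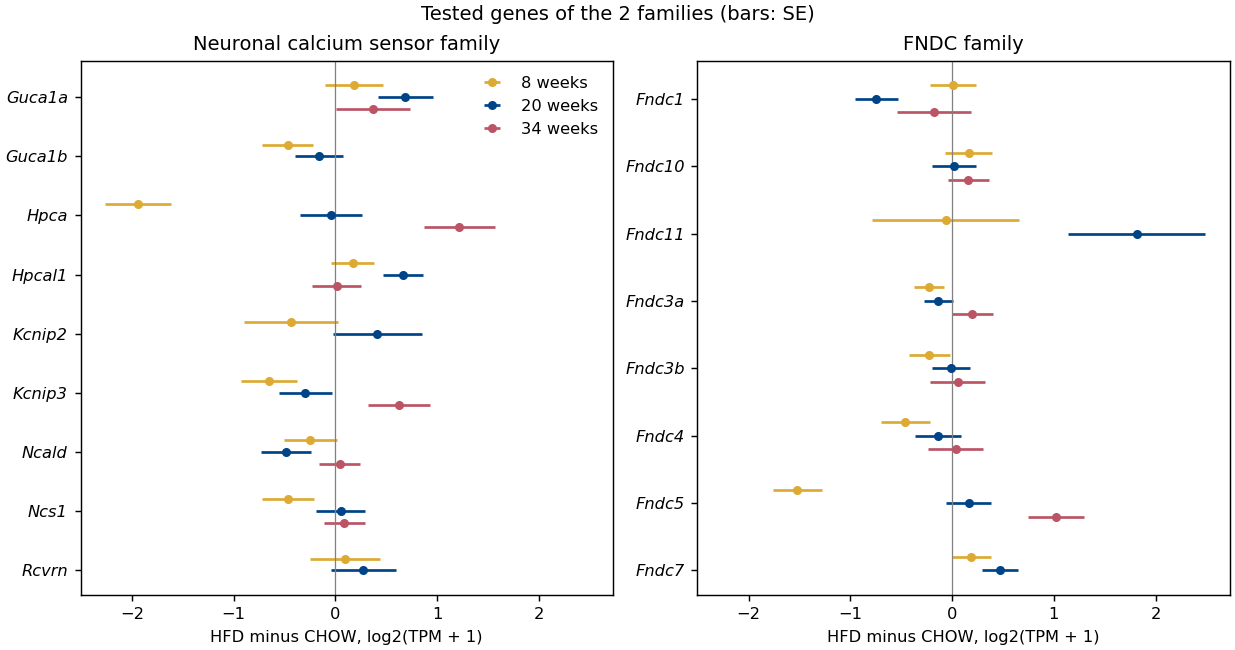
HFD minus CHOW on the log2(TPM + 1) scale (x axis, bars SE) for the tested genes of the neuronal calcium sensor and FNDC families (y axis) at 8, 20 and 34 weeks. Hpca (-1.94) and Fndc5 (-1.52), which were chosen through the 8 week contrast, have the lowest 8 week values of their families.

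Whether Hpca and Fndc5 vary together between libraries of one group was asked with group means removed, a measure apart from the diet contrast. Over the 21 libraries of 8 and 20 weeks Pearson's r was 0.449 (permutation p = 0.0656, adjusted p = 0.262) and Spearman's rho 0.425 (permutation p = 0.0781, adjusted p = 0.312). Over the 13 libraries of 34 weeks r was 0.737 (permutation p = 0.0102, adjusted p = 0.123) and rho 0.725 (permutation p = 0.0135, adjusted p = 0.0809). Leaving out the 2 libraries farthest from the median of Hpca gave r of 0.353 and 0.663. Without CHOW replicates 5 to 7 the 34 week r was 0.450 over 10 libraries. By group r was 0.846 for CHOW at 8 weeks, 0.656 and 0.613 for CHOW and HFD at 20 weeks, and 0.777 and 0.641 for CHOW and HFD at 34 weeks. In the HFD libraries of 8 weeks, with Hpca at 1.32 to 3.44 TPM and Fndc5 at 0.577 to 2.10 TPM, r was -0.324. These r are values of 4 to 7 libraries each and were not tested.

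Hpca and Tmem54, which share 57 bp of exon on opposite strands, had r of 0.516 at 8 and 20 weeks (permutation p = 0.0205, adjusted p = 0.123, rho 0.597 with a permutation p of 0.00532 and an adjusted p of 0.0638) and 0.0490 at 34 weeks. None of the 12 pairs of members, 6 in each table, passed adjustment over the 12, by r or by rho. Scores of 16 marker lists were set against Hpca and Fndc5 in both tables, and none of the 64 relations passed adjustment. The strongest was Fndc5 with the progenitor and fibroblast score at 34 weeks (r = 0.827, permutation p = 0.00248, adjusted p = 0.159, and r = 0.651 without the 2 farthest libraries). By size of r, Fndc5 with the mast cell score at 34 weeks followed at 0.756 (adjusted permutation p = 0.161). Hpca with the germ cell score at 34 weeks had r = -0.639 (permutation p = 0.00591, adjusted p = 0.161).

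**Figure D5:**
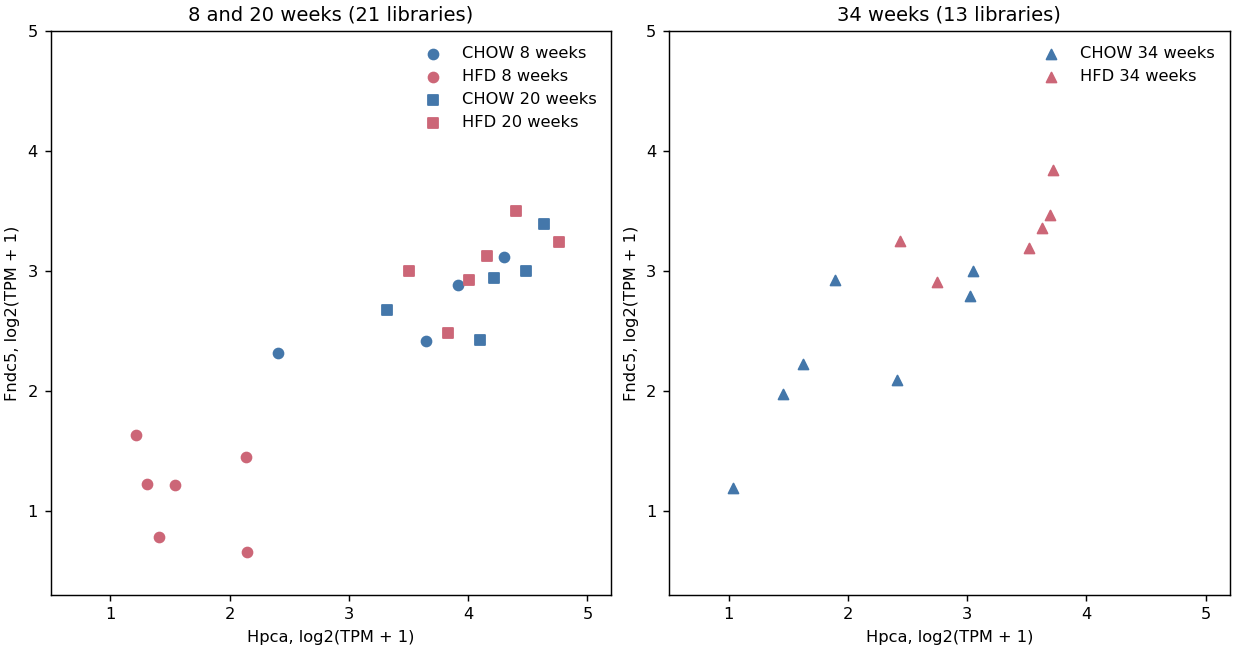
Fndc5 (y axis) against Hpca (x axis), both log2(TPM + 1), in the 21 libraries of 8 and 20 weeks (left) and the 13 of 34 weeks (right); each point is a library, colour marks the diet and shape the time. The HFD 8 week libraries form the low group on the left, within which r is -0.324.

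Genes whose levels tracked Hpca most closely were sought over all 34 libraries, with group means removed, among 13910 genes, and these correlations are descriptions over libraries that share their composition. The 5 highest were Asah2 (r = 0.777), a neutral ceramidase, Slc29a1 (0.750), a nucleoside transporter, Fchsd1 (0.742), Gm37767 (0.738) and Abca8a (0.734), a lipid transporter. For Fndc5 they were Gtf2ird2 (0.756), Ctso (0.747), a cathepsin, Bdh2 (0.746), Chml (0.734) and Timp2 (0.726), an inhibitor of metalloproteinases. None of these 10 lies in the locus. None was called between the diets at 20 or 34 weeks, when 14.3% and 0.243% of all genes tested were, so nothing is read from that count. Fndc5 ranked 175 for Hpca and Hpca ranked 150 for Fndc5 (r = 0.605 in both directions), while S100pbp ranked 3605 and 7779. Without CHOW 34 week replicates 5 to 7 Fndc5 ranked 726 for Hpca and Hpca 213 for Fndc5. The likeness was stronger at 34 weeks, where r with Hpca was 0.937 for Asah2 against 0.618 at 8 and 20 weeks. Without CHOW 34 week replicates 5 to 7 the r of Hpca was 0.697 with Asah2 and 0.449 with Fndc5 over 31 libraries, and that of Fndc5 with Gtf2ird2 was 0.648.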

How the data were processed

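RNA of the SVF pellet was made into poly(A) libraries with a stranded TruSeq kit and sequenced on a NextSeq 500. The authors trimmed reads with Trimmomatic, checked them with FastQC and MultiQC, and quantified transcripts with Salmon against gencode M10 (coding and long non-coding, mm10 per the labels) before summing to genes. No source used here gives the tool versions. The authors deposited TPM values in 2 tables (21 libraries of 8 and 20 weeks, 13 of 34 weeks), and each library sums to 1000000 to within rounding, so depth is unknown and no counting interval can be given. As TPM is relative, any gene that takes up a larger part of a library lowers the rest.

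Groups and replicate numbers came from the sample titles. Gene IDs were matched by Ensembl ID without its version to gencode M21, which gave 31791 symbols. Values were transformed to log2(TPM + 1). The fit covered genes that reached 1 TPM in 4 or more libraries (8 and 20 weeks, 16808 genes) or in 6 or more (34 weeks, 13982 genes). It was made with limma 3.58.1 in R 4.3.3, with 1 mean per group, a mean-variance trend, two-sided tests, Benjamini-Hochberg adjustment within a comparison and calls at an adjusted p under 0.05. Hpca, Fndc5 and S100pbp passed in both tables, and Tmem54 only in the first. The fit was tested on simulated data. Exact permutation tests took every arrangement of the labels of a comparison. Correlations used 100000 shuffles within groups. The members, gene lists and the rule for named genes (members, list genes, genes within 500 kb and the 5 genes most alike) were chosen with earlier results of these data known. Promoter windows were RefSeq sequence, and all 4 members matched. The authors' own count-based test, the adipocyte libraries and proteins were not used here. Alternatives covered pseudocount, filter, scaling, sample weights, an adipocyte covariate, a replicate block, 2-group fits and leaving out libraries. Leaving out CHOW 34 week replicates 5 to 7 together was chosen after seeing the data.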

Additional observations from a re-analysis of the deposited data

Results flagged for a closer look

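Each member was examined in each of the 6 groups for a library far from the rest, 24 checks for groups of 4 to 7 libraries, of which chance would pass about 1 in 20. Both libraries that stood out were for Tmem54. CHOW 8 week replicate 4 was at 2.86 TPM, against 1.30 to 1.48 TPM in the other libraries of its group, and its gap to them took up 0.887 of the range of the 4 libraries. CHOW 20 week replicate 3 was at 2.48 TPM, with a gap of 0.796 of the range of 5 libraries whose other values were at most 0.706 TPM. No library stood out in this way for Hpca, Fndc5 or S100pbp.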

How the results depend on the processing

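At 8 weeks the differences of Hpca and Fndc5 stayed negative under every alternative run, from -2.33 to -1.51 and from -2.09 to -1.27, and from -2.33 to -1.70 and -1.64 to -1.38 with 1 library left out. The -2.09 of Fndc5 came with a pseudocount of 0.1 TPM. At 20 weeks no alternative called a member, and directions near 0 turned. Fndc5 was at -0.014 under quantile normalization, Hpca at 0.038 with sample quality weights and 0.46 with the adipocyte covariate, and Tmem54 at -0.020 with the weights. With 1 library left out Hpca ranged from -0.25 to 0.078 at 20 weeks. At 34 weeks Hpca ranged from 1.05 to 1.48 and Fndc5 from 0.70 to 1.21 over the alternatives (adjusted p 0.0483 to 0.531 and 0.0176 to 0.569 by limma), and from 1.05 to 1.39 and 0.84 to 1.14 with 1 library left out. Sample quality weights took both past the threshold, at 1.19 and 1.01. The exact permutation tests of single genes, unadjusted, also passed for Hpca (1.22), Fndc5 (1.02) and S100pbp (0.34). The cause was not tested.

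The number of genes called at 20 weeks was 2405, against 5092 with sample quality weights, 167 with the adipocyte covariate and 1253 to 3098 with 1 library left out (1365, 1253 and 1268 without CHOW replicates 3, 4 and 5). Calls higher on HFD made up 65.1% of them, 47.1% under quantile normalization and 31.7% with the covariate. Adipocyte RNA itself differed between the diets at 20 weeks, so the fit with the covariate cannot separate it from diet. At 34 weeks the number called was 34 by limma, with 1848 genes at an unadjusted p under 0.05. It was 7 with no filter, 19 under quantile normalization (89.5% higher on HFD) and 294 with the weights (73.5% higher). It was 0 with a pseudocount of 0.1 TPM (1787 at an unadjusted p under 0.05), the covariate (1182), the replicate block (1666) and without CHOW replicates 5 to 7 (1363). With 1 library left out it ran from 0 to 111. It was 0 without CHOW replicate 7 or HFD replicate 2 or 4 (1503, 1456 and 1536 at an unadjusted p under 0.05), 1 without HFD replicate 3, 4 to 6 without HFD replicate 5, HFD replicate 6, CHOW replicate 1 or CHOW replicate 5, 13 without CHOW replicate 3, 57 without HFD replicate 1 and 111 without CHOW replicate 4.

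Deviations of same-numbered libraries correlated at -0.105 to 0.214, not always above 0.1. In all, 11 of 30 libraries correlated best with their own number in the other diet. These were 2 of 8 at 8 weeks, 2 of 10 at 20 weeks and 7 of 12 at 34 weeks. The main fit did not pair libraries by number. The share was highest at 34 weeks, and whether the numbers mark pairs there was not tested. At that time the replicate block took the genes called from 34 to 0. The replicate block gave 3597 calls at 20 weeks, with -0.05 for Hpca and 0.15 for Fndc5, and 1.12 and 0.96 at 34 weeks, where it called no member (adjusted p = 0.276 and 0.248 by limma). TPM keeps no depth, so the precision of Tmem54, near 1 TPM or below, cannot be set.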
